A study of Mus musculus with 5 samples.

Results

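The 30 genes described here carry out the oxidation of fatty acids in mitochondria, the use of ketone bodies, and the control of both by the peroxisome proliferator-activated receptors (PPARs). They were chosen by name from the 55496 genes of the deposited transcript tables, with no expression value in the rule. Earlier results of these data were known when the genes were chosen. Of the 30, 25 had a mean level of at least 1 TPM (StringTie's length-normalised share of all transcripts in a library) and were tested among 13879 such genes, and 5 fell below that level. The study measured total RNA of GL261, an established mouse glioma cell line, grown as a single line in culture. Cells were treated for 24 h with sodium propionate (libraries of replicates 2 and 3) or with sodium chloride, the control salt (libraries of replicates 1, 2 and 3), both labelled as 1 uM, a unit that could not be checked here. Propionate replicate 1 was not analysed here. Whether each library is a culture of its own is not given in the labels. The p-values thus set a difference between the groups against the spread among these libraries only, and that spread may be technical. The question addressed is which transcripts differ after propionate treatment.

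Fatty acids enter mitochondria as carnitine esters and are shortened by a repeating spiral of dehydrogenation, hydration, a second dehydrogenation and thiolysis, which releases acetyl-CoA and passes electrons to the respiratory chain. Ketone bodies made in liver are taken up by other tissues, brain included, and are converted back to acetyl-CoA in mitochondria. PPARs are nuclear receptors that bind fatty acids, pair with retinoid X receptors, and in liver, muscle and fat raise the transcription of many genes of this pathway. Propionate is a short-chain fatty acid of microbial fermentation, and with its odd carbon number it is metabolised through propionyl-CoA and not through the whole spiral.

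PPAR and retinoid X receptor pairs bind a direct repeat of the hexamer AGGTCA with 1 base between the copies. RefSeq windows of 250 bases before and 50 bases after a gene's start (GRCm38.p6) were found for 26 of the 30 genes, 29 windows in all, and were searched on both strands. The hexamer AGGTCA occurred in 7 of the 29 windows (24.1%), against 16.3% of the 32851 windows of all genes. Those windows belonged to Cpt1a, Cpt1c, Acadm, Acadvl, Plin2 and Pparg, the last with 2 windows. The full repeat AGGTCANAGGTCA, which contains the hexamer, occurred in 0 of the 29 windows and in 0.0396% of all windows. The looser form AGGNCANAGGNCA, which includes the full repeat, occurred in 0 of the 29 and in 0.381% of all. These matches describe letters in short windows and say nothing of binding. The 250 bases before the start are shown for 3 genes with a match, chosen as an entry enzyme, a spiral enzyme and a lipid droplet gene whose levels are given below. Capitals mark the hexamer or its reverse complement TGACCT, and each sequence is written 5′ to 3′ on the strand of its gene. The Cpt1a window lies at chr19:3323051-3323300 (plus strand), with the match 94 bases before the start.
Cpt1a: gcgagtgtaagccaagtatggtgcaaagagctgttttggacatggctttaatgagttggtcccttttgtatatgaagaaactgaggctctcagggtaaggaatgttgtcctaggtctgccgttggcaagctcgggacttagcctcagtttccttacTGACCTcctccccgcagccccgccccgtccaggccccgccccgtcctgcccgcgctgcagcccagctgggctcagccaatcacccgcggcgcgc
The Acadm window lies at chr3:153944644-153944893 (minus strand), with the match 249 bases before the start.
Acadm: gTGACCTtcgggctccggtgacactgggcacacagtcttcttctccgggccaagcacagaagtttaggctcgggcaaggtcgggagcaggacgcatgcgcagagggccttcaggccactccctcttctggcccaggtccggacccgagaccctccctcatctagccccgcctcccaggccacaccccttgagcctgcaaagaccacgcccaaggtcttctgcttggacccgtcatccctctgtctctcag
The Plin2 window lies at chr4:86670060-86670309 (minus strand), with the match 218 bases before the start.
Plin2: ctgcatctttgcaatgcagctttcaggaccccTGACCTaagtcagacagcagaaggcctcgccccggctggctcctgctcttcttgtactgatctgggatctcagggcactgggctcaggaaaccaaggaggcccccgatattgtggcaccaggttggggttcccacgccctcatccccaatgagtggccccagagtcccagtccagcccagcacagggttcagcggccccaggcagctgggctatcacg

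None of the 25 tested genes passed the threshold, a Benjamini-Hochberg adjusted p under 0.05 in limma's test across all 13879 genes (two-sided, on log2(TPM + 1)). Over all genes tested, 182 were higher in propionate (1.31%) and 70 lower (0.504%), 1.82% together. At an unadjusted p under 0.05, 2 of the 25 were higher, against 7.93% of all genes, and 1 was lower, against 8.9% of all genes. Both propionate libraries lay above all 3 chloride libraries for 7 of the 25 genes (14.8% of all genes) and below them for 2 (19.7% of all genes). The 9 genes without overlap are thus 9 of 25, beside 34.6% of all genes. The median log2 change, propionate minus chloride, was 0.03 over the 25 genes and -0.03 over all genes tested, with 17 of the 25 above 0, beside 44.5% of all genes. The 95% interval included 0 for 22 of the 25 and lay wholly between 0.5-fold and 2-fold for all 25, the outermost bounds being 0.652-fold (Eci1) and 1.56-fold (Ucp2). Fold changes on this scale understate changes of genes with few TPM. In bulk RNA, fewer cells expressing a gene and less RNA per cell cannot be told apart.

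**Figure D1:**
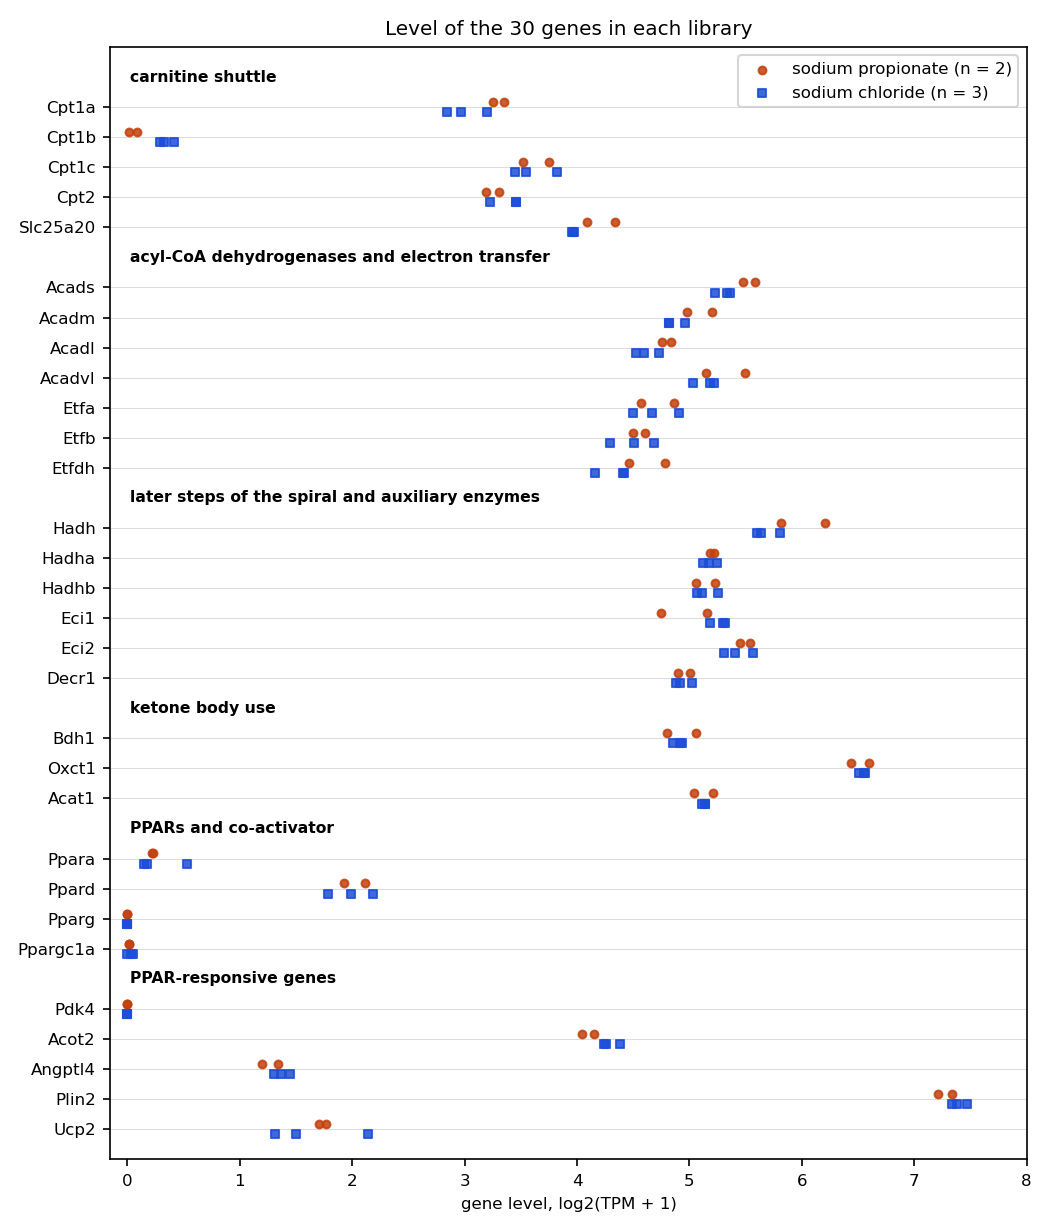
Level of each of the 30 genes in every library, as log2(TPM + 1) on the horizontal axis, grouped by role; circles are the 2 propionate libraries and squares the 3 chloride libraries. Plin2 and Oxct1 sit highest, 17 of the 30 genes average 20 TPM or more, and Pparg and Pdk4 are listed at 0 in all 5 libraries.

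GL261 carried the transcripts of the whole oxidation spiral. The 18 carnitine shuttle, spiral and electron transfer genes summed to 464 and 539 TPM in the propionate libraries and to 494, 454 and 440.2 TPM in the chloride libraries. The 3 ketone genes summed to 145 and 164 TPM in propionate and to 156, 153 and 155 TPM in chloride. In each sum propionate replicate 3 lay above the chloride range and propionate replicate 2 inside or below it. TPM is a level per transcript length, so levels of different genes can be compared. All 7 glioma markers (Vim, Nes, Cd44, Sox2, Pdgfra, S100b and Gfap) reached 1 TPM in every library. None of the endothelial, fat, liver or muscle markers did. Chloride replicate 1 stood apart in the 4 liver markers, which summed to 3.97 TPM there (Alb 3.02 TPM), against 0.0722 and 0 TPM in the propionate libraries and 0.0575 and 0.0203 TPM in chloride replicates 2 and 3. The 8 myeloid markers summed to 10.4 and 12.2 TPM in propionate and to 7.94, 7.39 and 6.58 TPM in chloride. Cd68 was the only one of these at 1 TPM in every library, and 3 of the 8 were listed at 0 throughout. The part of these differences in the results below was not tested. Aligned sequence amounted to 7.19 to 7.63 Gb per library, and 1 TPM stood for a coverage of 4.73 to 4.99 reads per base, so levels of a few TPM rest on shallow coverage.

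Of the 3 carnitine palmitoyltransferase 1 genes, Cpt1a and Cpt1c reached the tested range. Cpt1a, the liver-type enzyme that sets the rate of entry, had 8.51 and 9.20 TPM in the propionate libraries and 8.19, 6.20 and 6.84 TPM in the chloride libraries. Both propionate values lay above the chloride range, by a narrow margin in replicate 2. The log2 change was 0.29 ± 0.13 (SE), with a 95% interval of 0.990-fold to 1.52-fold and a limma adjusted p of 0.322. Cpt1c, the brain-type form, which lies in the endoplasmic reticulum and has little enzyme activity, had 10.5 and 12.5 TPM in propionate and 9.91, 13.2 and 10.7 TPM in chloride. Its groups overlapped, with a log2 change of 0.03 ± 0.14, and it stood above Cpt1a in 5 of 5 libraries. Cpt1b, the muscle-type form, was near 0 in every library, at 0.00934 and 0.0595 TPM in propionate and 0.221 to 0.335 TPM in chloride, below the tested range. Both propionate libraries lay below all 3 chloride libraries, and with no minimum level the log2 change was -0.30 ± 0.06 (unadjusted p = 0.00385, limma adjusted p = 0.207). Its locus on chromosome 15 lies wholly inside Gm44502, a gene on the same strand with 4.78 and 8.79 TPM in propionate and 5.79, 6.38 and 3.15 TPM in chloride, so how its reads were shared with that gene is uncertain.

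The carnitine carrier Slc25a20, which exchanges acylcarnitine for carnitine across the inner membrane, had 16.0 and 19.2 TPM in propionate. In chloride its levels were 14.7, 14.6 and 14.6 TPM. Both propionate libraries were above 3 nearly equal chloride libraries, and the log2 change was 0.25 ± 0.11 (limma adjusted p = 0.307). Cpt2, which turns the carnitine ester back into acyl-CoA inside, had 8.12 and 8.90 TPM in propionate and 9.98, 9.97 and 8.34 TPM in chloride. Its groups overlapped, and its log2 change of -0.13 ± 0.12 had the opposite sign to those of Cpt1a and Slc25a20. The 5 genes grouped as the shuttle, Cpt1c included, summed to 43.1 and 49.9 TPM in propionate and to 43.0, 44.2 and 40.8 TPM in chloride.

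The 4 acyl-CoA dehydrogenases, which open each turn of the spiral on chains of different length, all had positive differences that missed the threshold. Acads, the short-chain enzyme, had 43.4 and 46.9 TPM in propionate and 39.3, 40.0 and 36.5 TPM in chloride. Its groups did not overlap (log2 change 0.22 ± 0.09, unadjusted p = 0.0469, limma adjusted p = 0.289). Acadm, the medium-chain enzyme, had 30.6 and 35.9 TPM in propionate and 30.1, 27.1 and 27.3 TPM in chloride. Here propionate replicate 2 cleared the highest chloride library by less than 1 TPM, and the log2 change was 0.23 ± 0.11 (limma adjusted p = 0.335). Acadl, the long-chain enzyme, had 25.9 and 27.5 TPM in propionate and 25.5, 22.1 and 23.1 TPM in chloride, again without overlap and by a margin as narrow (0.18 ± 0.10, limma adjusted p = 0.430). Acadvl, the very-long-chain enzyme, had 34.5 and 44.2 TPM in propionate and 36.3, 31.8 and 35.3 TPM in chloride. Its groups overlapped, since propionate replicate 2 fell inside the chloride range (0.18 ± 0.12, limma adjusted p = 0.518). Acadvl shares 2119 bases with Dvl2 on the other strand, and the abundance estimates used no strand option.

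Electrons from these dehydrogenases pass to the electron transfer flavoprotein and from it to ubiquinone. The flavoprotein's subunit genes overlapped between the groups. Etfa had 22.8 and 28.2 TPM in propionate and 28.9, 24.3 and 21.6 TPM in chloride. Etfb had 21.7 and 23.3 TPM in propionate and 24.7, 21.8 and 18.6 TPM in chloride. The log2 changes were 0.03 ± 0.14 for Etfa and 0.06 ± 0.13 for Etfb. Etfdh, the oxidoreductase that hands the electrons to ubiquinone, had 21.1 and 26.5 TPM in propionate and 20.3, 20.3 and 16.9 TPM in chloride. Its groups did not overlap (log2 change 0.30 ± 0.13, limma adjusted p = 0.313). It shares 422 bases with 4930579G24Rik on the other strand, a gene of 9.42 to 12.3 TPM. All 7 dehydrogenase and electron transfer genes had changes above 0 (44.5% of all genes), with a median of 0.18, and 0 of the 7 passed the threshold. Without chloride replicate 3 the changes of Etfa and Etfb were below 0, at -0.06 and -0.05, and without propionate replicate 3 that of Etfa was -0.11. Their sum was 200.1 and 232 TPM in propionate and 205, 187 and 179 TPM in chloride, so propionate replicate 2 lay below the highest chloride library.

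**Figure D2:**
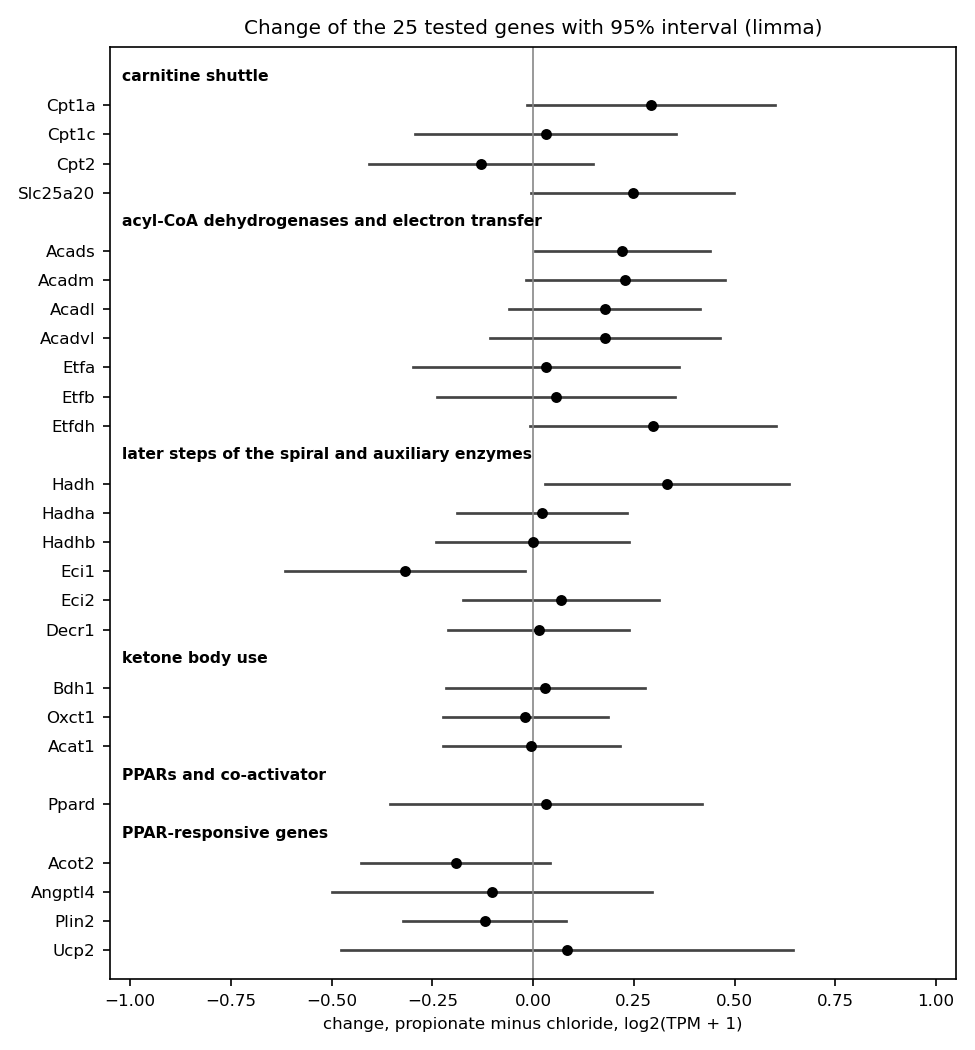
Log2 change (propionate minus chloride, on log2(TPM + 1)) of the 25 tested genes with its 95% interval from limma, ordered by role. The 7 dehydrogenase and electron transfer genes lie right of 0, Hadh is highest at 0.33 and Eci1 lowest at -0.32, and no gene passed the adjusted p of 0.05.

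The widest differences of either sign lay among the later steps. Hadh, the 3-hydroxyacyl-CoA dehydrogenase for short and medium chains, had 55.3 and 73.0 TPM in propionate and 55.1, 48.7 and 47.4 TPM in chloride. Propionate replicate 3 stood well above all other libraries, while propionate replicate 2 was about level with chloride replicate 1. The log2 change was 0.33 ± 0.13 (1.02-fold to 1.55-fold, unadjusted p = 0.0356), and the limma adjusted p was 0.256, the lowest of the 25 genes. Eci1, an isomerase that prepares unsaturated chains for the spiral, had 25.9 and 34.6 TPM in propionate and 38.9, 38.4 and 35.4 TPM in chloride. Both propionate values were below the chloride range, replicate 3 only just so (log2 change -0.32 ± 0.13, 0.652-fold to 0.986-fold, unadjusted p = 0.0393, limma adjusted p = 0.267). The mean was 64.1 ± 12.6 TPM in propionate and 50.4 ± 4.12 TPM in chloride for Hadh (SD, n = 2 and 3). For Eci1 it was 30.2 ± 6.17 TPM in propionate and 37.6 ± 1.88 TPM in chloride (SD, n = 2 and 3).

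Other enzymes of these steps gave values that overlapped between the groups. Eci2, the second isomerase of unsaturated chains, had 42.6 and 45.6 TPM in propionate and 46.3, 38.6 and 41.4 TPM in chloride (log2 change 0.07 ± 0.11). Decr1, the dienoyl-CoA reductase that clears certain double bonds, had 28.8 and 31.2 TPM in propionate and 31.5, 29.1 and 28.5 TPM in chloride (0.01 ± 0.10). The interval of Decr1 spanned 0.864-fold to 1.18-fold and that of Eci2 0.886-fold to 1.24-fold.

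Hadha and Hadhb encode the subunits of the mitochondrial trifunctional protein, which carries out the last 3 reactions of the spiral on long chains. The genes lie head to head on chromosome 5, with 85 bases between their annotated starts (chr5:30155163-30155247, GRCm38.p6, shown on the plus strand). The stretch is printed because the pair shares it as upstream sequence. Its G and C content is 69.4%, and it holds 9 CG dinucleotides.
Hadha-Hadhb interval: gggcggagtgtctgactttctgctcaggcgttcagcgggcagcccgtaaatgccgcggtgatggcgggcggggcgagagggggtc
Hadha had 35.3 and 36.3 TPM in propionate and 36.9, 35.2 and 33.8 TPM in chloride. Hadhb had 32.4 and 36.4 TPM in propionate and 37.1, 32.5 and 33.7 TPM in chloride. The ratio of Hadha to Hadhb was 1.09 and 0.998 in the propionate libraries and 0.995, 1.08 and 1.00 in the chloride libraries. The subunit genes were thus at nearly equal level in every library of both groups. Their log2 changes were 0.02 ± 0.09 (Hadha, 0.877-fold to 1.17-fold) and -0.00 ± 0.10 (Hadhb, 0.846-fold to 1.18-fold).

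The 3 genes of ketone body use were abundant, and their groups overlapped. Oxct1, the transferase that activates acetoacetate and is absent from liver, had 85.9 and 96.1 TPM in propionate and 92.7, 90.0 and 93.6 TPM in chloride. It was the second most abundant of the 30 genes, with a log2 change of -0.02 ± 0.09 (0.856-fold to 1.14-fold). Bdh1, which interconverts 3-hydroxybutyrate and acetoacetate, had 26.9 and 32.3 TPM in propionate and 29.6, 29.1 and 27.8 TPM in chloride (0.03 ± 0.11). Acat1, the thiolase that splits acetoacetyl-CoA, had 31.9 and 36.0 TPM in propionate and 34.2, 34.2 and 33.6 TPM in chloride (-0.00 ± 0.10). The chloride libraries of Acat1 were within 1 TPM of each other and lay between the propionate libraries.

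Of the 3 PPAR genes, Ppard alone reached the tested range. Ppard, the most widely expressed of the receptors, had 2.80 and 3.32 TPM in propionate and 3.56, 2.96 and 2.44 TPM in chloride. The groups overlapped, with a log2 change of 0.03 ± 0.17 and an interval of 0.782-fold to 1.34-fold. Ppara, the main receptor of liver, had 0.173 and 0.163 TPM in propionate and 0.449, 0.133 and 0.111 TPM in chloride. Pparg, the receptor of fat cells, was listed at 0 in all 5 libraries. Ppargc1a, a co-activator of PPARs, was at 0.0124 and 0.0132 TPM in propionate and at 0, 0.0219 and 0.0375 TPM in chloride. The highest Ppara value was that of chloride replicate 1, where the liver marker sum was also highest, a link that was not tested. Of that value, 0.214 and 0.0817 TPM came from short 3-exon transcripts (360 and 367 bases) listed at 0 in the other libraries. The 8-exon Ppara transcripts had 0.0586 and 0.0950 TPM there. Ppara, Pparg and Ppargc1a were below the tested range.

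The 5 genes known to respond to PPARs gave no difference past the threshold. Plin2, which coats lipid droplets, was the most abundant of the 30 genes, with 148 and 161 TPM in propionate and 176, 166 and 161 TPM in chloride. Propionate replicate 3 and chloride replicate 3 were level, and the log2 change was -0.12 ± 0.09 (0.800-fold to 1.06-fold, limma adjusted p = 0.544). Acot2, a mitochondrial acyl-CoA thioesterase, had 15.6 and 16.8 TPM in propionate and 19.8, 17.9 and 18.2 TPM in chloride. Both propionate libraries were below all 3 chloride libraries (log2 change -0.19 ± 0.10, limma adjusted p = 0.385). Its near-identical cytosolic neighbour Acot1 had 37.6 and 40.7 TPM in propionate and 39.7, 36.6 and 37.3 TPM in chloride, and the division of reads between these genes is uncertain.

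Ucp2, an inner-membrane carrier of the uncoupling protein family, had 2.27 and 2.41 TPM in propionate and 3.41, 1.84 and 1.49 TPM in chloride. Both propionate libraries lay inside a wide chloride range, whose top was chloride replicate 1, so the interval was the widest of the 25 genes (0.719-fold to 1.56-fold). In chloride replicate 1, 1.91 of the 3.41 TPM came from a 743-base transcript that had 0.0818 to 0.247 TPM in the other libraries. The main Ucp2 transcript, of 8 exons, had 2.08 and 2.11 TPM in propionate and 1.29, 1.37 and 1.17 TPM in chloride. That difference was not tested. Angptl4, a secreted inhibitor of lipoprotein lipase, had 1.29 and 1.54 TPM in propionate and 1.46, 1.58 and 1.72 TPM in chloride, with overlapping groups (log2 change -0.10 ± 0.17). Pdk4, the kinase that turns off pyruvate dehydrogenase during fasting, was listed at 0 in all 5 libraries. Its relatives Pdk1 and Pdk3 had 57.3 to 65.7 TPM and 27.8 to 35.2 TPM over the 5 libraries.

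Most of the 25 genes differed together between single libraries. All 25 were higher in propionate replicate 3 than in propionate replicate 2, against 75% of all genes tested. In 19 of the 25, chloride replicate 1 was the highest chloride library, against 48.1% of all genes. The liver marker sum was also highest there, and a link between these was not tested. Set against the mean of the chloride libraries (log2), the 25 genes had a median of -0.04 for propionate replicate 2 and of 0.12 for propionate replicate 3. The chloride libraries of replicates 1, 2 and 3 had medians of 0.08, -0.01 and -0.06. The gap between the propionate libraries was thus wider than the median change of 0.03. Over all genes tested the medians of the same differences were -0.08 and 0.03 in propionate and 0.04, 0.00 and -0.04 in chloride. With propionate replicate 3 as the sole propionate library the median of the 25 was 0.12. With propionate replicate 2 as the sole one it was -0.04, so its sign differed with the library used. Without chloride replicate 1 it was 0.13, and without chloride replicate 3 it was -0.01.

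**Figure D3:**
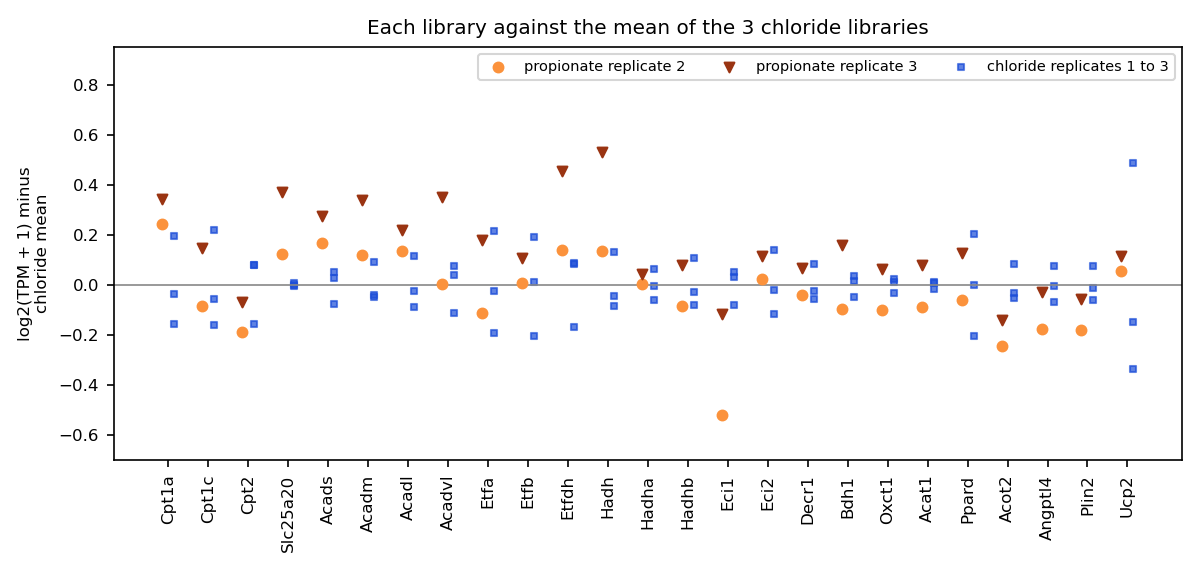
Difference of each of the 25 tested genes from its chloride mean (log2 scale, vertical axis) in each of the 5 libraries, with circles for propionate replicate 2, triangles for propionate replicate 3 and squares for the 3 chloride libraries. The triangle is above the circle for all 25 genes, and the median of the triangles is 0.12 against -0.04 for the circles.

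The gene levels sum 199 transcripts, of which 17, in 11 genes, were assembled from the reads and have no Ensembl name. Assembled transcripts held between 6.14% and 42.4% of the Oxct1 level, and the log2 change of Oxct1 was 0.28 when Ensembl transcripts alone were summed, against -0.02 for the whole gene. In Eci2 they held 28.5% to 56.9%, and its log2 change was 0.36 with Ensembl transcripts alone, against 0.07. In Etfb 1 assembled transcript, which overlaps 3 genes, carried 9.27 TPM in chloride replicate 3 alone. The log2 change of Etfb was 0.36 without it, against 0.06. The make-up of these genes thus differed between libraries of 1 group, and no single transcript was tested between the groups.

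**Figure D4:**
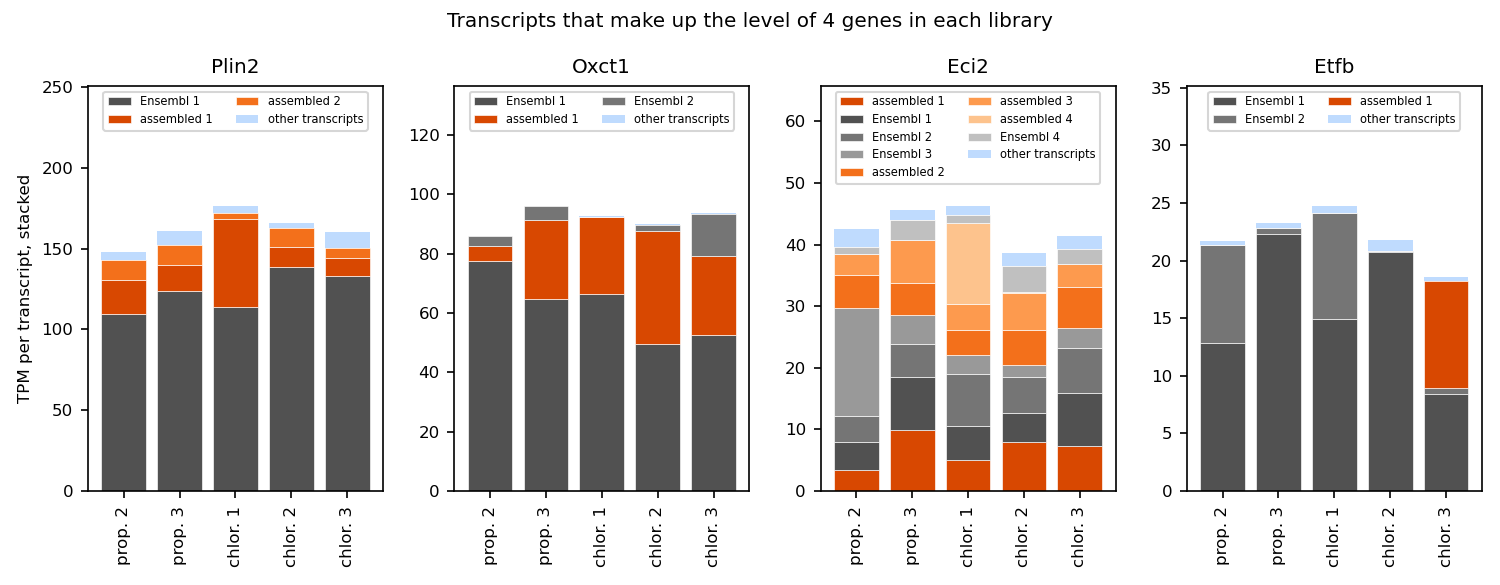
Level of each transcript (TPM, stacked) in each library for Plin2, Oxct1, Eci2 and Etfb, propionate libraries left and chloride libraries right. Grey shades are Ensembl transcripts and orange shades assembled ones. Light blue is the rest, transcripts whose mean over the libraries is below 5% of the gene's mean. The total height varies less between libraries than the parts, as in Oxct1, whose total stays between 85.9 and 96.1 TPM.

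Other genes of the pathway were taken from 5 lists, whose counts at an unadjusted p under 0.05 stand beside 7.93% higher and 8.9% lower of all genes tested. Of 27 further enzymes of mitochondrial and peroxisomal oxidation, all were tested and 0 passed limma's adjusted p in either direction (median log2 change 0.03), and an unadjusted p under 0.05 was reached by 4 higher and 0 lower genes. Abcd2, a peroxisomal transporter of very-long-chain acyl-CoA, had 2.04 and 2.14 TPM in propionate and 1.13, 1.07 and 1.07 TPM in chloride (0.56 ± 0.17, limma adjusted p = 0.145). Acaa2, the thiolase of the mitochondrial spiral, had 46.2 and 50.6 TPM in propionate and 40.6, 36.7 and 39.4 TPM in chloride (0.31 ± 0.10, limma adjusted p = 0.160). Both were separate between the groups and missed the threshold.

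Of 25 further PPAR target genes, 8 were tested, and 2 rose and 0 fell (median 0.16), beside 1.31% higher and 0.504% lower of all genes tested. The list was chosen with earlier results known, and 17 of its genes were too low to test. Fabp3, the heart-type fatty acid binding protein, had 35.2 and 39.7 TPM in propionate and 22.3, 21.9 and 22.4 TPM in chloride. The log2 change was 0.73 ± 0.10 (limma adjusted p = 0.0138), and the means were 37.4 ± 3.21 TPM in propionate and 22.2 ± 0.254 TPM in chloride (SD, n = 2 and 3). Fabp3 shares 81 bases with Zcchc17 on the other strand, which had 15.6 and 20.3 TPM in propionate and 16.3, 15.6 and 14.5 TPM in chloride. Fabp3 passed in 9 of 13 other settings, and its adjusted p was 0.0502 without chloride replicate 1, 0.0930 without propionate replicate 3, 0.102 with Ensembl transcripts alone and 0.129 with no minimum level. Creb3l3, a membrane-bound transcription factor that works with PPAR-alpha in liver, had 6.27 and 6.95 TPM in propionate and 2.095, 3.07 and 2.13 TPM in chloride. The log2 change was 1.16 ± 0.16 (limma adjusted p = 0.0153). Creb3l3 passed in 7 of 12 other settings, with an adjusted p of 0.0508 without chloride replicate 1, 0.0817 without propionate replicate 2, 0.142 without propionate replicate 3, 0.0862 with Ensembl transcripts alone and 0.169 with no minimum level. Of the list genes named here and below, Fabp3, Creb3l3, Pprc1, Rxra, Slc16a1 and Acot7 had a window. The hexamer AGGTCA occurred in those of Creb3l3, Pprc1 and Rxra, beside 16.3% of the windows of all genes.

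The other 17 PPAR targets were below the tested range, and 4 of them were listed at 0 in all libraries. Cd36, a fatty acid uptake protein, is named from these after its values were seen. It had 0.335 and 0.550 TPM in propionate and 0.0509, 0.0462 and 0.0546 TPM in chloride. With no minimum level the log2 change was 0.45 ± 0.07 (limma adjusted p = 0.182).

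Of 20 PPAR partners and co-regulators, 16 were tested and 0 passed (median -0.04), with an unadjusted p under 0.05 for 1 higher and 2 lower. Rxra, a retinoid X receptor, had 20.2 and 24.2 TPM in propionate and 17.99, 18.8 and 16.7 TPM in chloride (0.30 ± 0.11, limma adjusted p = 0.242). Pprc1, a co-activator related to Ppargc1a, had 4.87 and 4.68 TPM in propionate and 8.03, 8.93 and 5.38 TPM in chloride (-0.52 ± 0.19, limma adjusted p = 0.211). Neither overlapped between the groups. Pprc1 shares 329 bases with Ldb1 on the other strand, which had 63.5 and 72.9 TPM in propionate and 64.6, 91.6 and 65.6 TPM in chloride, and reads of these genes cannot be told apart there. Of 12 further ketone body genes, 7 were tested and 0 passed (median 0.16), with an unadjusted p under 0.05 for 1 higher and 0 lower. Slc16a1, a carrier of lactate, ketone bodies and short-chain fatty acids, had 24.8 and 31.1 TPM in propionate and 22.8, 21.6 and 20.5 TPM in chloride (0.35 ± 0.12, limma adjusted p = 0.193).

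Of 13 relatives of Pdk4, Acot2, Plin2 and Angptl4, 12 were tested and 0 passed (median 0.02), with an unadjusted p under 0.05 for 1 higher and 1 lower. Pdp1, the phosphatase that reverses the pyruvate dehydrogenase kinases, had 8.82 and 9.84 TPM in propionate and 6.65, 7.19 and 6.89 TPM in chloride (0.38 ± 0.11, limma adjusted p = 0.135). Acot7, the main acyl-CoA thioesterase of brain, had 74.1 and 87.3 TPM in propionate and 99.1, 91.6 and 93.9 TPM in chloride (-0.23 ± 0.10, limma adjusted p = 0.286). Abcd2, Acaa2, Slc16a1, Pdp1 and Acot7 passed the threshold when TPM was recomputed over protein-coding genes, and Pprc1 did so without chloride replicate 3.

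**Figure D5:**
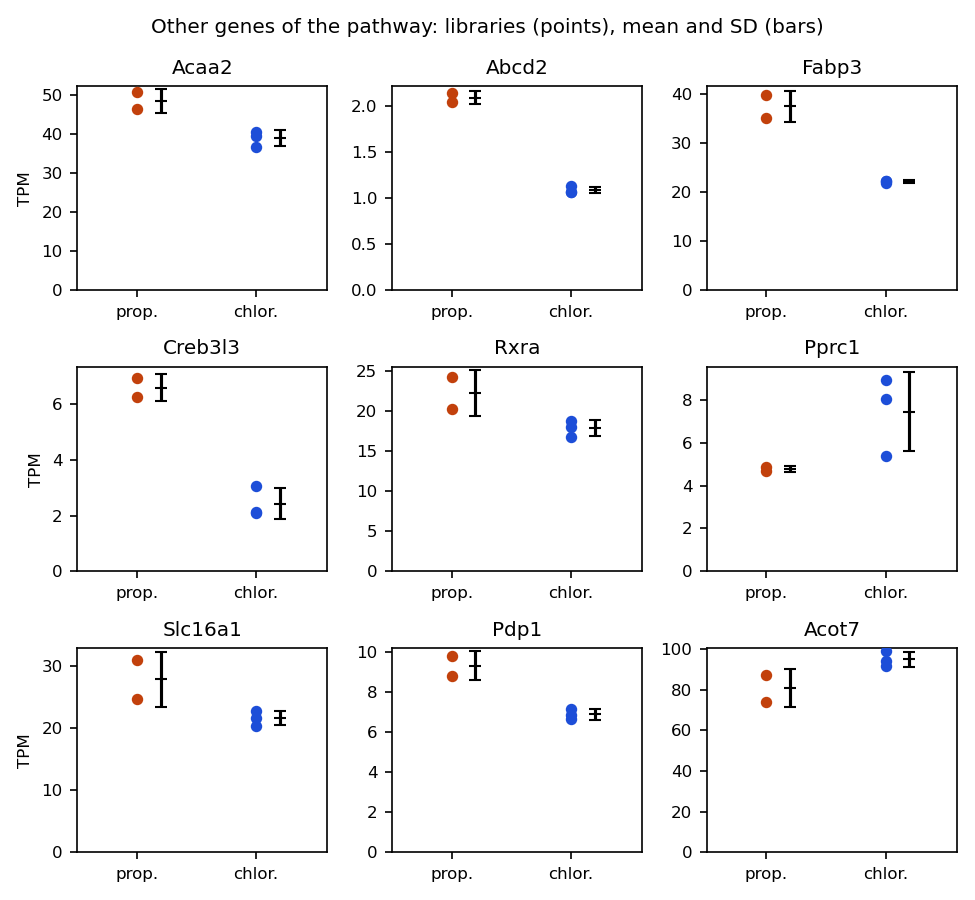
TPM in every library for 9 genes named from the 5 lists, propionate libraries left and chloride libraries right in each panel; points are libraries, and the bars beside them give the mean and SD of the group (n = 2 and 3). Fabp3 and Creb3l3, the 2 genes past the adjusted p of 0.05, have both propionate libraries well above the chloride range.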

How the data were processed

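Per the labels' protocols, RNA was extracted with RNeasy Mini plus and made into TruSeq Stranded Total RNA libraries. Tools named in the submitters' processing notes are HISAT2, StringTie, fastp and bcl2fastq, and the build is mm10. Per the file headers, the authors' transcript tables were written by StringTie 2.1.1 with no strand option and give coverage, FPKM and TPM per transcript and no counts, so count tests were not used. Each table lists 157895 transcripts, 142480 from Ensembl and 15415 assembled.

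GENCODE M21 gave the gene of 141271 of the 142480 Ensembl transcripts, and the others were assigned by the gene name or identifier in the files. Gene TPM is the sum over a gene's Ensembl transcripts and the 12224 assembled ones overlapping it on its strand, of which 1546 overlap more than 1 gene. Genes with a mean of at least 1 TPM (13879) were tested as log2(TPM + 1) with limma 3.58.1 in R 4.3.3 (trend, two-sided, Benjamini-Hochberg), with group as the only term, after the code was tested on simulated data. In each of the 10 pairs of libraries at most 9 of the 13879 genes had identical values. Sequences are from RefSeq (GRCm38.p6).

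The 30 genes and the 5 lists were chosen with earlier results of these data known. All 30 genes are given. From each list, every gene past the threshold is named. A list without one is shown by its 2 genes of lowest p, except that 1 gene of the ketone list is not reported here. The 13 alternatives changed the pseudocount, the filter, FPKM for TPM, the scaling, the assembled transcripts, the replicate block and each library in turn.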

Additional observations from a re-analysis of the deposited data

How the results depend on the processing

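None of the 30 genes that was tested passed the threshold, in either direction, in any of the 13 alternatives. The lowest limma adjusted p was 0.0582 (Hadh, TPM over protein-coding genes), and 13 of the 25 tested genes kept their sign throughout. The genes called higher and lower among all genes tested moved more. They numbered 2 and 1 with no filter on low values, 240 and 118 with FPKM, 336 and 152 with median-of-ratios scaling, 629 and 405 with TPM over protein-coding genes, and 5 and 6 with Ensembl transcripts alone. With 1 library left out there were 8 to 128 higher and 7 to 47 lower, the fewest without propionate replicate 3. The cause was not tested.

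Some log2 changes near 0 changed sign. That of Hadhb was 0.0162 with median-of-ratios scaling, 0.0029 over protein-coding genes and 0.023 with Ensembl transcripts alone. That of Acat1 was 0.0132 with median-of-ratios scaling. With Ensembl transcripts alone Oxct1 was at 0.285 and Angptl4 at 0.115. With 1 library left out, the ranges were -0.0842 to 0.146 for Cpt1c, -0.115 to 0.177 for Etfa, -0.0454 to 0.151 for Etfb, -0.0085 to 0.0539 for Hadha and -0.0838 to 0.0805 for Hadhb. They were -0.0405 to 0.0672 for Decr1, -0.0979 to 0.159 for Bdh1, -0.0998 to 0.0613 for Oxct1, -0.0884 to 0.0791 for Acat1, -0.0696 to 0.133 for Ppard and -0.084 to 0.328 for Ucp2. The cause was not tested.

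The groups share replicate numbers 2 and 3, and no label says that a number pairs libraries. The deviations of libraries with the same number correlated at -0.22 (number 2) and -0.19 (number 3). Those of propionate replicate 3 with chloride replicate 2 correlated at 0.22, and of propionate replicate 2 with chloride replicate 3 at 0.19. With 2 propionate libraries the deviations mirror each other, so these values cannot show whether a number pairs libraries. With the replicate block, 266 genes were higher and 104 lower, and 0 of the 30 passed. The median of the tested genes was 0.13, Cpt1c was at -0.0488 and Hadhb at 0.0526. No analysed propionate library has the number 1, so the log2 changes of the block fit equal those without chloride replicate 1. With no minimum level, 3 of the 5 genes below 1 TPM were tested, with limma adjusted p-values of 0.207 (Cpt1b), 0.878 (Ppara) and 0.903 (Ppargc1a). Values below 1 TPM rest on a coverage under 5 reads per base.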
